A study of Mus musculus with 8 samples.

Results

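Collagens outside the basement membrane were followed through 4 groups of cells from the derivation of testicular cells from mouse embryonic stem cells (ESCs). They were taken as every protein-coding gene whose mouse symbol in GENCODE M21 reads Col, a type number, a and a chain number, without the type IV chains Col4a1 to Col4a6 and the basement membrane zone collagens Col15a1 and Col18a1. The rule found 36 genes among the 46078 gene identifiers counted and left out 8 collagen genes. Of the 36, 11 encode fibrillar chains, 11 network and filament chains, 9 fibril-associated chains with interrupted triple helices (FACITs), 4 transmembrane chains, and 1, Col26a1, falls outside these classes. RNA-seq had been done on 2 libraries of each group. The tcESCs are a male (XY) C57BL/6 ESC line carrying the tesco-cfp reporter, in which CFP follows the testis enhancer of Sox9, and were kept in medium with 2 kinase inhibitors and LIF. The tc;Sf1ESCs are 1 clone of that line (XY;tesco-cfp;Sf1) that overexpresses mouse Sf1, the gene Nr5a1, from a transfected plasmid under G418 selection. Sertoli cell-like cells (SCLCs, called testicular somatic cell-like cells in the labels) were CFP-positive cells sorted from cultures of the tc;Sf1ESC clone at day 12 of differentiation, first with the Wnt activator CHIR99021 and the retinoic acid receptor agonist TTNPB and then with CHIR99021, BMP7 and FGF9, so they carry the same transgenes. The todPGCLCs are primordial germ cell-like cells sorted by GFP, together with a surface marker that the methods name as CD49f in one passage and SSEA1 in another, at day 6 from testicular organoids, in which epiblast-like cells were grown with testicular somatic cell-like cells. They carry XY;Prdm1-gfp and descend from another C57BL/6 ESC line, so that line and cell type cannot be told apart wherever they are compared with tcESCs or SCLCs. Aggregates and organoids were taken apart with enzymes, collagenase among them, before sorting.

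Collagens are triple helices of 3 chains that are hydroxylated in the endoplasmic reticulum, folded by chaperones, exported, trimmed by proteinases and cross-linked outside the cell. Types I, II, III, V, XI, XXIV and XXVII form or seed fibrils, type VI forms beaded filaments, type VII anchors epithelia, type VIII forms sheets, and FACITs such as types IX, XII and XIV decorate fibril surfaces. In the testis, Sertoli cells and the peritubular myoid cells around them build the wall of the seminiferous tubule together, with type IV collagen in its basement membrane and fibrillar and type VI collagens in the layer outside it. Type II and type IX collagens are best known from cartilage.

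The libraries held 25411033 to 30680191 counts on genes, so that 3 counts corresponded to 0.0978 to 0.118 CPM (counts scaled to a library of standard size). CPM here is a level within a library scaled by the trimmed mean of M values (TMM), and CPM per kilobase of merged exons is used wherever levels of different genes are compared. The SD of the log2 difference between the 2 libraries of a group over all genes tested was 0.321 in tcESCs, 0.31 in tc;Sf1ESCs, 0.378 in todPGCLCs and 0.518 in SCLCs. Nr5a1, the gene that the plasmid carries, lay at 0.0394 and 0 CPM in tcESCs, 2.02 and 1.1 in tc;Sf1ESCs, 13.4 and 19.2 in SCLCs and 0.207 and 0.179 in todPGCLCs. Of the Sertoli cell markers, Gata4 (432 and 451 CPM) and Sox9 (8.08 and 4.67 CPM) were present in SCLCs, but the Sertoli hormone Amh stood at 0.392 and 0.79 CPM there against 0.585 to 0.878 CPM in the 4 ESC libraries, and the ligand Dhh had 5 and 1 counts. Wt1 is also expressed by Sertoli cells. It had 0.592 and 0.617 CPM in tcESCs, 0.35 and 0.476 in tc;Sf1ESCs, 2.35 and 0.826 in SCLCs and 11.5 and 10.5 in todPGCLCs. Sox9 had 2.35 and 4.72 CPM in todPGCLCs, so Wt1 and Sox9 were raised in the todPGCLC libraries as well. The other Sertoli genes examined stayed low there. Gata4 had 2.97 and 5.43 CPM in todPGCLCs, above tcESCs (1.85 and 2.34) but below the tc;Sf1ESC clone (6.65 and 6.73). Amh (0.656 and 0.858 CPM) and Dhh (0.587 and 0.429 CPM) lay within their range over the ESC libraries, and Cldn11 had 0 and 2 counts. SCLC libraries also held markers of other cells. The 7 primitive and visceral endoderm genes examined summed to 1691 to 3074 CPM, against at most 3.98 CPM in the ESC libraries and 16.6 to 28.5 CPM in todPGCLCs. The 8 fibroblast and peritubular genes summed to 814 to 949 CPM, against 9.21 to 10.6 CPM in the ESC libraries and 27.3 to 29.1 CPM in todPGCLCs. Pdgfra gave most of that SCLC sum (764 and 911). Acta2 had 20.8 and 15 CPM in SCLCs, Nr2f2 12.8 and 11.8, Pdgfrb 6.16 and 4.81 and Prrx1 2.78 and 2.44. Twist1 stood at 4.86 and 3.23 CPM there, against 3.47 and 4.39 in tcESCs. Myh11 (1.57 and 0.323 CPM) and Tcf21 (0.392 and 0.216 CPM) were low. A sum led by 1 gene does not tell which cells it came from. Of the 6 germ cell genes examined, Prdm1 (170 and 184 CPM) and Dppa3 (147 and 172 CPM) were raised in todPGCLCs. Their tcESC levels were 7.93 and 8.12 CPM and 24.7 and 25.8 CPM. Tfap2c (176 and 210 CPM, tcESCs 58.7 and 62.3) and Ddx4 (30.6 and 28.3 CPM, tcESCs 14.4 and 13.9) were higher too. Dazl was not, with 185 and 99.3 CPM (tcESCs 172 and 191). Nanos3 stood at 2.07 and 3.9 CPM (tcESCs 1.93 and 1.98), below the tc;Sf1ESC clone (9.17 and 9.18). The part these other cells had in the collagen values below was not tested, and in such bulk libraries more cells of a type and more RNA per cell cannot be told apart.

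Members differed strongly between groups in both total and make-up. Summed over the 36 genes, the level was 9.67 and 9.94 CPM per kilobase in the tcESC libraries, 12.6 and 12.3 in tc;Sf1ESCs, 110 and 69 in SCLCs and 42.3 and 44.1 in todPGCLCs. In tcESCs the largest single contribution came from Col5a1 (31.5% of the mean sum), in tc;Sf1ESCs from Col2a1 (20.2%), in SCLCs from Col1a1 (25.6%) and in todPGCLCs from Col9a2 (43.5%). Fibrillar chains gave 54.1% of the sum in tcESCs, 68.1% in tc;Sf1ESCs, 72.2% in SCLCs and 30.9% in todPGCLCs, whereas FACIT chains gave 27.4%, 21.5%, 13.1% and 54.2%. Of the 8 collagens left out by the rule, 2 were on another scale in SCLCs, Col4a1 at 2650 and Col4a2 at 1482 CPM per kilobase, against 22.9 for Col1a1, the highest member, and the other 6 stood at 12.7 (Col18a1) or less. In proportion, the network and filament sum differed most of the class sums between the SCLC libraries, at 13.8 and 6.34 CPM per kilobase. The fibrillar sum differed more in absolute terms, at 80 and 49.2.

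**Figure D1:**
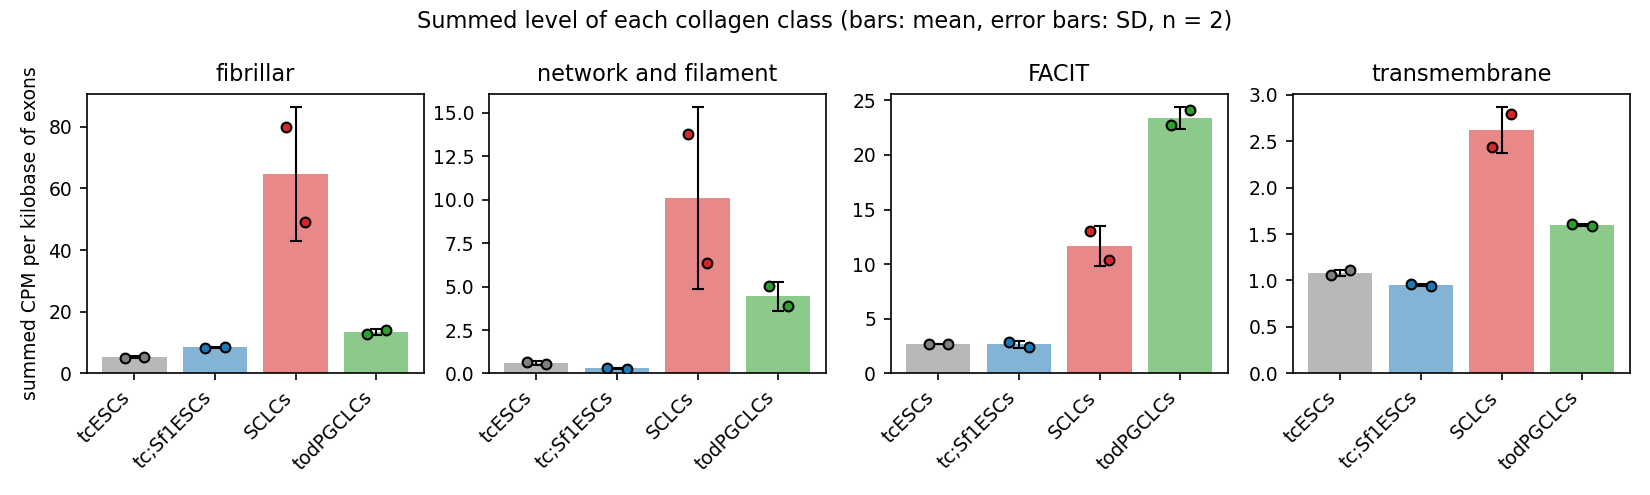
Summed level of each collagen class in CPM per kilobase of merged exons (vertical axes, each starting at 0) in the 4 groups. Bars are means, error bars SDs and points the 2 libraries; the fibrillar, network and transmembrane sums were highest in SCLCs (means 64.6, 10.1 and 2.62) and the FACIT sum in todPGCLCs (23.4).

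Differences were tested for each gene with edgeR's quasi-likelihood test, and a gene was called when it changed more than 2-fold with a Benjamini-Hochberg adjusted p under 0.05 over all genes tested. Genes needed a mean count above 10 over the libraries fitted, which 27 members passed and 9 did not in the fit for the first 3 comparisons, and 29 passed and 7 did not in the fit with todPGCLCs. Of all genes tested, 11.7% were called between tc;Sf1ESCs and tcESCs, 6.04% higher and 5.63% lower, and among the 27 members 4 were higher and 1 was lower. Between SCLCs and tc;Sf1ESCs 42.2% of genes were called, 24.1% higher and 18.1% lower, and 21 members were higher and 2 lower. Between SCLCs and tcESCs 42.7% were called, 24.3% higher and 18.3% lower, and 21 members were higher and 1 was lower. Between todPGCLCs and tcESCs 29.4% were called, 18.1% higher and 11.2% lower, and of 29 members 22 were higher and 0 lower. Between SCLCs and todPGCLCs 38% were called, 19.5% higher and 18.5% lower, with 14 members higher and 6 lower. Median log2 fold changes over the members tested were -0.10, 2.78, 2.09, 2.32 and 0.58 in the same order, beside 0.00, 0.02, 0.05, 0.03 and -0.01 over all genes tested. Changes below are differences on the log2 scale (first group minus second), and levels are in CPM or counts. Comparisons that use the same libraries are not independent of each other.

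Several members passed that filter only through the group in which they were high and had to differ. The medians above include these members, so nothing is read from them. Counting instead only genes with a mean count above 10 in the second group of a comparison, 12 of 17 members (70.6%) were higher in SCLCs than in tc;Sf1ESCs, against 19% of 15200 genes, and 2 were lower, against 19.6%. By the same count 12 of 18 (66.7%) were higher in SCLCs than in tcESCs, against 19.8% of 15289 genes, and 1 was lower, against 19.6%. For todPGCLCs against tcESCs these shares were 12 of 19 (63.2%) and 13.9% of 15302 genes. For tc;Sf1ESCs against tcESCs the counts were small, 4 of 18 members (22.2%) higher, against 5.23% of genes, and 1 lower, against 5.98%. In SCLCs against todPGCLCs all 29 members tested were above that limit in todPGCLCs, and 14 (48.3%) were higher, against 17.3% of 15785 genes, and 6 (20.7%) lower, against 19.3%.

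**Figure D2:**
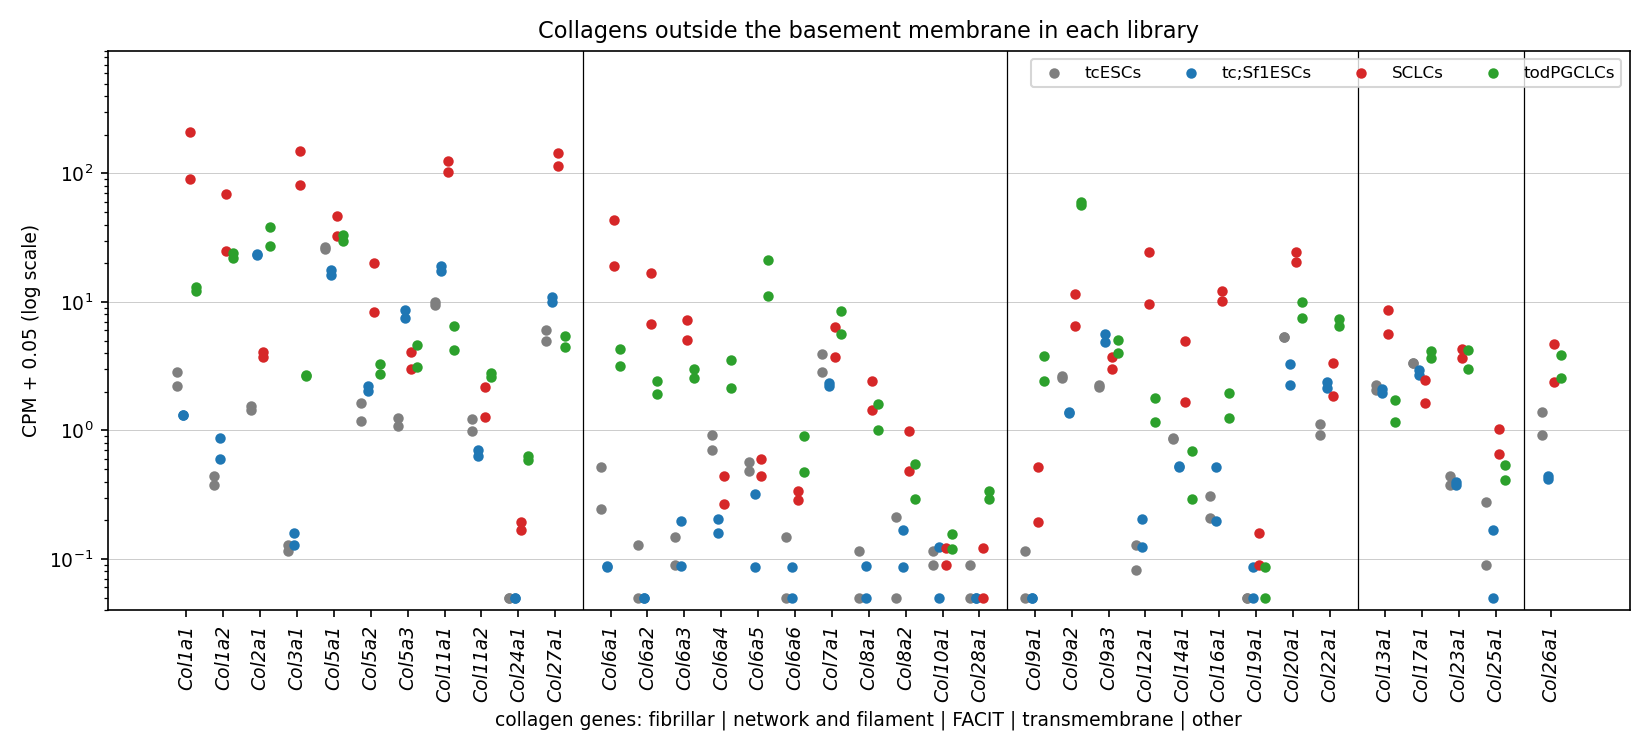
CPM plus 0.05 (log scale) of the 36 genes, ordered by class, with 1 point for each of the 8 libraries. Col1a1, Col3a1, Col11a1 and Col27a1 stand near or above 100 CPM in SCLCs, Col9a2 near 60 in todPGCLCs, and Col2a1 above 20 in tc;Sf1ESCs and todPGCLCs but near 4 in SCLCs.

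Among the fibrillar chains, those of types I and III had the largest changes between SCLCs and the ESC groups. Col1a1 (chromosome 11, 94936224 to 94953042 on GRCm38, + strand), which encodes the chain present in 2 copies in a type I molecule, had 2.17 and 2.79 CPM in tcESCs, 1.28 and 1.28 in tc;Sf1ESCs, 210 and 90.6 in SCLCs and 12 and 13 in todPGCLCs. Both SCLC libraries lay far above all others, and replicate 1 was 2.32 times replicate 2. Against tc;Sf1ESCs the log2 fold change was 6.87 ± 0.501 (SE, adjusted p = 1.74e-05), and against todPGCLCs 3.59 ± 0.347 (SE, adjusted p = 2.26e-05). Without SCLC replicate 1 these were 6.16 and 2.87, and both calls held. Its partner Col1a2 (chromosome 6, 4504814 to 4541544 on GRCm38, + strand), the other type I chain, had 0.394 and 0.325 CPM in tcESCs, 0.816 and 0.549 in tc;Sf1ESCs, 68.8 and 25 in SCLCs and 23.8 and 22 in todPGCLCs. Col1a2 rose by log2 6.11 ± 0.593 (SE, adjusted p = 7.23e-05) in SCLCs over tc;Sf1ESCs, or 5.21 without SCLC replicate 1. Unlike Col1a1 it stood almost as high in todPGCLCs as in SCLC replicate 2, and the difference between SCLCs and todPGCLCs, log2 1.03 ± 0.371 (SE, adjusted p = 0.0334), fell to 0.14 without SCLC replicate 1 and was called in 3 of 9 alternative analyses. Col3a1 (chromosome 1, 45311538 to 45349706 on GRCm38, + strand), whose type III fibrils are typical of soft connective tissue, went from 2 and 2 counts in tcESCs and 2 and 3 in tc;Sf1ESCs to 3813 and 2264 in SCLCs (150 and 81.3 CPM), with 77 and 73 in todPGCLCs (2.66 and 2.61 CPM). Because the ESC libraries held at most 3 counts each, the change is given as a ratio, 1209 (exact 95% counting interval 518 to 3725, adjusted p = 2.95e-06). Between SCLCs and todPGCLCs it was log2 5.45 ± 0.297 (SE, adjusted p = 8.71e-07).

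Col27a1 and Col11a1 reached the same range in SCLCs without being silent in ESCs. Col27a1 (chromosome 4, 63214004 to 63334991 on GRCm38, + strand), a fibrillar chain with a shortened helix known from developing cartilage, had 4.89 and 6.04 CPM in tcESCs, 9.91 and 10.9 in tc;Sf1ESCs, 115 and 143 in SCLCs and 5.35 and 4.43 in todPGCLCs. It rose by log2 3.64 ± 0.145 (SE, adjusted p = 1.19e-06) in SCLCs over tc;Sf1ESCs and stood 4.72 ± 0.162 (SE, adjusted p = 9.92e-08) above todPGCLCs, whose libraries overlapped those of tcESCs. Col11a1 (chromosome 3, 114030540 to 114220718 on GRCm38, + strand), whose type XI chain nucleates fibrils, had 10 and 9.46 CPM in tcESCs, 17.5 and 19 in tc;Sf1ESCs, 124 and 102 in SCLCs and 4.14 and 6.47 in todPGCLCs. The SCLC libraries lay above the rest by log2 2.63 ± 0.116 (SE, adjusted p = 1.69e-06) against tc;Sf1ESCs and by 4.41 ± 0.19 (SE, adjusted p = 2.67e-07) against todPGCLCs, in which Col11a1 was lower than in tcESCs by less than 2-fold (-0.88 ± 0.194 (SE, adjusted p = 0.00404)). Unlike the type I and III chains, both genes were close between the SCLC libraries, replicate 1 being 0.802 times replicate 2 for Col27a1 and 1.22 times for Col11a1.

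The 250 bases before the RefSeq start are shown for Col3a1, Col27a1 and Col11a1 because these genes led the SCLC group and their windows hold no exon annotated in GENCODE M21. Sequences are from the RefSeq promoter table (GRCm38.p6), 5′ to 3′ on the + strand, at chr1:45311288-45311537, chr4:63215162-63215411 and chr3:114030290-114030539. Capitals mark matches on either strand to CCAAT, to GGGCGG (the GC box), to AAGGTCA (a half-site of the kind that SF1 binds) and to TATAAA.
Col3a1: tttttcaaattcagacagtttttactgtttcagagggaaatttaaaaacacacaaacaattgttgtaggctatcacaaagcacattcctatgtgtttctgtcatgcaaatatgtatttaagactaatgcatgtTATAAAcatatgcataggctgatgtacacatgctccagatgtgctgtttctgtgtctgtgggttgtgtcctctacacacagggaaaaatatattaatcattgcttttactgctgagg
Col27a1: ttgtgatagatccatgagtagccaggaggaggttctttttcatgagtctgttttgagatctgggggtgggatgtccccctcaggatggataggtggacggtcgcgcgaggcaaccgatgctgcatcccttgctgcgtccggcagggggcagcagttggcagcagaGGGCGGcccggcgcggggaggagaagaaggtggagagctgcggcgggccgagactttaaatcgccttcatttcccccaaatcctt
Col11a1: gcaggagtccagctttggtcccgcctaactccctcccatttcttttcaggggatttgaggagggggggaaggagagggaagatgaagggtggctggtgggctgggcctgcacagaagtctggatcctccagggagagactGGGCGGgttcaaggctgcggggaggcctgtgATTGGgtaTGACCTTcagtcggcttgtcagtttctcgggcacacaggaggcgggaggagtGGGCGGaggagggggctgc
Only Col3a1 of the 3 held TATAAA, 117 bases before the start and far from the usual place of such a box. Col27a1 held 1 GGGCGG, at -85, and Col11a1 held GGGCGG at -110 and -19, CCAAT at -79 and AAGGTCA at -71, the last pair on the other strand. Promoters were listed for 28 of the 36 genes, 30 promoters in all, and not for Col1a1, Col2a1, Col5a2, Col9a3, Col12a1, Col14a1, Col22a1 and Col26a1. GGGCGG occurred in 18 of the 30 (60%) against 32.7% of all 32851 promoters of the same length, AAGGTCA in 5 (16.7%) against 4.08%, CCAAT in 9 (30%) against 33.8% and TATAAA in 5 (16.7%) against 12.4%. These are matches of letters only, and the 5 with AAGGTCA were Col7a1, Col9a1, Col11a1, Col23a1 and Col24a1.

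Col2a1, the single chain of cartilage type II collagen (chromosome 15, 97975602 to 98004695 on GRCm38, - strand), followed another course. It had 1.5 and 1.4 CPM in tcESCs, 23 and 23.4 in tc;Sf1ESCs, 3.65 and 4.06 in SCLCs and 27.2 and 38.3 in todPGCLCs. The tc;Sf1ESC libraries were nearly equal and far above tcESCs, and the log2 fold change was 4.0 ± 0.155 (SE, adjusted p = 2.74e-05), called in all 10 alternative analyses. In SCLCs, which descend from the same clone, it was lower than in tc;Sf1ESCs, with a log2 fold change of -2.58 ± 0.138 (SE, adjusted p = 4.01e-06), yet still above tcESCs by 1.42 ± 0.163 (SE, adjusted p = 0.000175). The todPGCLC libraries held the highest levels, log2 4.50 ± 0.206 (SE, adjusted p = 7.66e-07) above tcESCs, and SCLCs were below them (-3.08 ± 0.183 (SE, adjusted p = 1.34e-06)). Cartilage marker genes took various courses. Acan, the cartilage proteoglycan, had 5.72 and 5.43 CPM in tcESCs, 1.13 and 0.585 in tc;Sf1ESCs, 2.74 and 0.683 in SCLCs and 12.1 and 11.1 in todPGCLCs. Matn1, a matrilin of cartilage, had 4.26 and 4.39 CPM in tcESCs, 5.44 and 5.16 in tc;Sf1ESCs, 0.0392 and 0.0359 in SCLCs and 1.97 and 1.04 in todPGCLCs. Sox6, a transcription factor of chondrocytes, had 0.946 and 1.23 CPM in tcESCs, 1.63 and 1.72 in tc;Sf1ESCs, 1.69 and 1.08 in SCLCs and 3.32 and 3.5 in todPGCLCs. Acan was thus lowest in tc;Sf1ESCs and SCLCs and Matn1 lowest in SCLCs, while the means of Sox6 had the same order over the groups as those of Col2a1, with SCLC libraries that overlapped the ESC groups. The 6 chondrocyte markers summed to 12.7 CPM in each tcESC library, 8.6 to 9.21 in tc;Sf1ESCs, 3.52 to 8.2 in SCLCs and 22.6 to 24.6 in todPGCLCs, and their part in the Col2a1 values was not tested.

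The type V chains, which set the diameter of type I fibrils, moved apart from each other. Col5a1 was the leading member in tcESCs and had 25.6 and 26.9 CPM in tcESCs, 17.7 and 16 in tc;Sf1ESCs, 46.8 and 32.7 in SCLCs and 29.5 and 33 in todPGCLCs. Its range across all groups was narrow, and in SCLCs it was log2 1.24 ± 0.171 (SE, adjusted p = 0.000434) above tc;Sf1ESCs, a call lost without SCLC replicate 1 (0.98). Col5a2, the second type V chain, had 1.58 and 1.14 CPM in tcESCs, 1.98 and 2.16 in tc;Sf1ESCs, 20 and 8.37 in SCLCs and 3.25 and 2.68 in todPGCLCs. It rose in SCLCs over tc;Sf1ESCs by log2 2.78 ± 0.428 (SE, adjusted p = 0.000789), or 2.03 without SCLC replicate 1. In todPGCLCs it was called higher than in tcESCs only at the limit (log2 1.14 ± 0.438 (SE, adjusted p = 0.0489), 5 of 9 alternatives) and lost the call when any tcESC, tc;Sf1ESC or todPGCLC library was left out. Col5a3, the chain of a less common type V form, had 1.03 and 1.2 CPM in tcESCs, 7.46 and 8.67 in tc;Sf1ESCs, 2.94 and 3.99 in SCLCs and 4.59 and 3.04 in todPGCLCs. Like Col2a1 it was higher in tc;Sf1ESCs than in tcESCs (log2 2.84 ± 0.24 (SE, adjusted p = 0.000358)) and lower again in SCLCs (-1.21 ± 0.213 (SE, adjusted p = 0.00155)), the second call being lost without SCLC replicate 1 (-1.0).

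The remaining fibrillar genes were low. Col11a2, the partner of Col11a1 in type XI collagen, had 0.946 and 1.17 CPM in tcESCs, 0.583 and 0.659 in tc;Sf1ESCs, 1.22 and 2.12 in SCLCs and 2.73 and 2.54 in todPGCLCs. It was called higher in SCLCs than in tc;Sf1ESCs (log2 1.43 ± 0.37 (SE, adjusted p = 0.0101)), a call lost without SCLC replicate 2 (0.97) or without tc;Sf1ESC replicate 1, and higher in todPGCLCs than in tcESCs (1.30 ± 0.311 (SE, adjusted p = 0.00589)), lost without tcESC replicate 1. Col24a1, a chain of developing bone and cornea, had no count in any ESC library, 3 and 4 in SCLCs and 17 and 15 in todPGCLCs, which did not reach the filter. Against a floor of 3 counts per library this made todPGCLCs at least 5.21-fold higher, with tcESCs as the base.

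**Figure D3:**
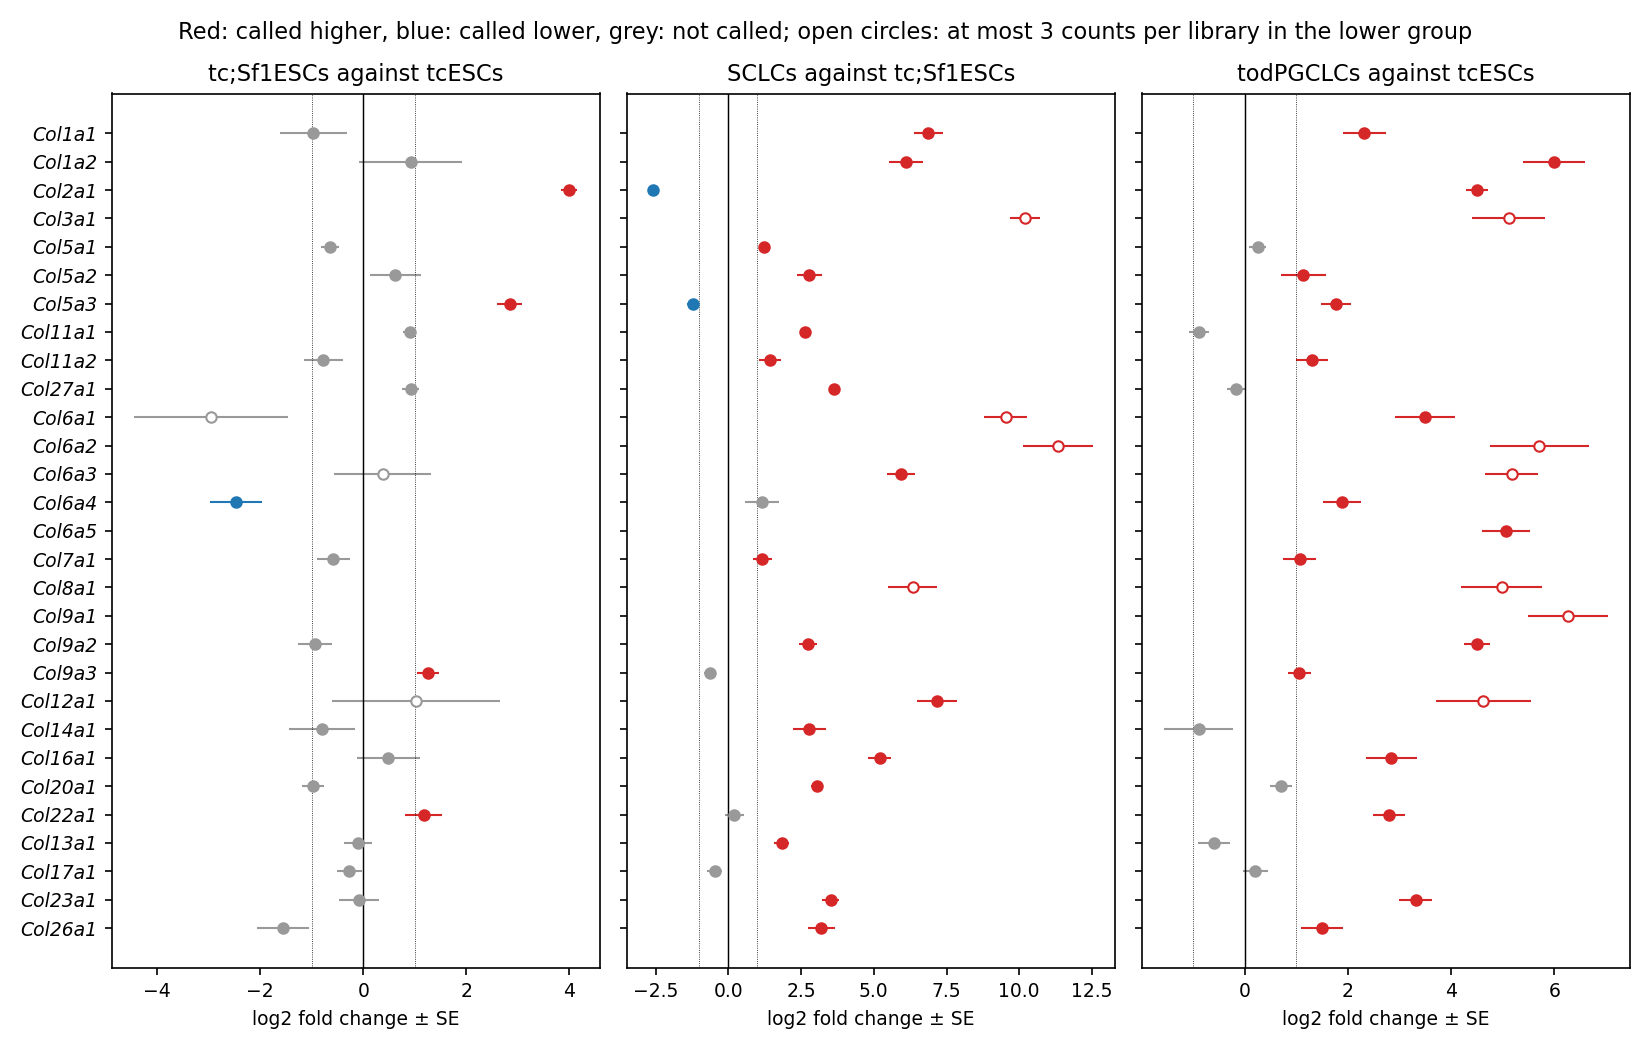
Log2 fold change with its SE (horizontal axes, of different ranges) for each member tested in 3 comparisons. Red marks members called higher, blue called lower and grey not called. Open circles mark genes with at most 3 counts per library in the lower group, for which the text gives ratios, and genes at or under 3 counts in all 4 libraries are left out. Col2a1 and Col5a3 are red in the first panel and blue in the second.

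Among network and filament collagens, the trio that makes type VI filaments was near 0 in ESCs and rose in SCLCs. Col6a1 (chromosome 10, 76708792 to 76726168 on GRCm38, - strand) had 12 and 6 counts in tcESCs, 1 and 1 in tc;Sf1ESCs, 1103 and 531 in SCLCs (43.3 and 19.1 CPM) and 124 and 87 in todPGCLCs (4.28 and 3.11 CPM). The ratio of SCLCs to tc;Sf1ESCs was 813 (exact 95% counting interval 225 to 6717, adjusted p = 2.51e-05), or 506 without SCLC replicate 1, and against tcESCs the log2 fold change was 6.58 ± 0.556 (SE, adjusted p = 3.6e-05), or 5.89 without SCLC replicate 1 and 7.28 without tcESC replicate 1. Col6a2 (chromosome 10, 76595762 to 76623630 on GRCm38, - strand) had 2 and 0 counts in tcESCs, 0 and 0 in tc;Sf1ESCs, 428 and 187 in SCLCs and 54 and 66 in todPGCLCs. It was at least 104-fold higher in SCLCs than in tc;Sf1ESCs, counted against a floor of 3 counts in each tc;Sf1ESC library, and at least 59.4-fold without SCLC replicate 1. Col6a3, the longest chain of the trio, had 1 and 3 counts in tcESCs, 1 and 4 in tc;Sf1ESCs, 183 and 138 in SCLCs and 72 and 83 in todPGCLCs. Its log2 fold change in SCLCs over tc;Sf1ESCs was 5.95 ± 0.48 (SE, adjusted p = 2.84e-05), or 5.29 without tc;Sf1ESC replicate 1, and without replicate 2, which leaves 1 count, the ratio was 155 (exact 95% counting interval 27.6 to 6136). In todPGCLCs the 3 genes stood above tcESCs too. Col6a1 was log2 3.50 ± 0.579 (SE, adjusted p = 0.000802) higher there, or 4.17 and 2.91 without tcESC replicate 1 or replicate 2. Ratios to tcESCs were 59.2 (exact 95% counting interval 16 to 494, adjusted p = 0.00129) for Col6a2 and 38.2 (exact 95% counting interval 14.6 to 142, adjusted p = 4.04e-05) for Col6a3, with 69 for Col6a3 and 26.7 for Col6a2 without tcESC replicate 2, and for Col6a2 at least 21.7-fold against 3 counts without tcESC replicate 1. SCLCs exceeded todPGCLCs by log2 3.07 ± 0.388 (SE, adjusted p = 0.000117) for Col6a1, or 2.37 without SCLC replicate 1, and by 1.15 ± 0.287 (SE, adjusted p = 0.00617) for Col6a3, a call lost without that library (0.87).

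The other type VI chains, Col6a4, Col6a5 and Col6a6, which lie side by side on chromosome 9 (Col6a6 from 105687809, Col6a5 from 105856078 to 105960643 and Col6a4 to 106096783) and can take the place of the third chain, were highest in todPGCLCs instead. Col6a5 had 0.434 and 0.52 CPM in tcESCs, 0.272 and 0.0366 in tc;Sf1ESCs, 0.549 and 0.395 in SCLCs and 21.3 and 11 in todPGCLCs. It was log2 5.06 ± 0.463 (SE, adjusted p = 2.82e-05) higher in todPGCLCs than in tcESCs and lower in SCLCs than in todPGCLCs (-5.09 ± 0.468 (SE, adjusted p = 1.66e-05)). Col6a4 had 0.868 and 0.65 CPM in tcESCs, 0.155 and 0.11 in tc;Sf1ESCs, 0.392 and 0.216 in SCLCs and 3.49 and 2.07 in todPGCLCs. It rose in todPGCLCs (log2 1.88 ± 0.366 (SE, adjusted p = 0.00199) over tcESCs) and was the only member called lower in tc;Sf1ESCs than in tcESCs (-2.47 ± 0.503 (SE, adjusted p = 0.00973)), at 22 and 20 against 4 and 3 counts, a call lost when either tc;Sf1ESC library was left out (range -2.73 to -2.24 over the libraries left out). Mouse Col6a6 had 0 and 3 counts in tcESCs, 0 and 1 in tc;Sf1ESCs, 6 and 8 in SCLCs and 25 and 12 in todPGCLCs, below the filter. Thus the trio and the neighbouring 3 genes had their highest levels in different groups.

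The promoter window of Col6a5 is shown as that of the filament gene highest in todPGCLCs (RefSeq, GRCm38.p6, chr9:105960644-105960893, read on the - strand). It held 1 GGGCGG, in capitals, 57 bases before the start, and none of the other motifs.
Col6a5: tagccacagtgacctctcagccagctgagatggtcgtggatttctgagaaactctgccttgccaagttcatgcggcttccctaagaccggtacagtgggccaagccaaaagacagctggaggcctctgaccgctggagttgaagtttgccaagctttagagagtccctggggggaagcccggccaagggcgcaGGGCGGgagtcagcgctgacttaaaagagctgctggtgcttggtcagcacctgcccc

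Type VII and VIII chains were low to moderate. Col7a1, which forms the anchoring fibrils under epithelia, had 3.9 and 2.79 CPM in tcESCs, 2.29 and 2.16 in tc;Sf1ESCs, 6.35 and 3.66 in SCLCs and 5.53 and 8.47 in todPGCLCs. It was called higher in SCLCs than in tc;Sf1ESCs (log2 1.17 ± 0.318 (SE, adjusted p = 0.0123)), a call lost without SCLC replicate 1 (0.74) or either tc;Sf1ESC library, and in todPGCLCs over tcESCs (1.07 ± 0.318 (SE, adjusted p = 0.0169)), lost without tcESC replicate 2 or todPGCLC replicate 2 (lowest 0.74). Col8a1, a chain of the sheets beneath vascular and corneal endothelium, had 0 and 2 counts in tcESCs, 1 and 0 in tc;Sf1ESCs, 61 and 39 in SCLCs and 45 and 27 in todPGCLCs. Its ratios were 99.5 (exact 95% counting interval 17.5 to 3968, adjusted p = 0.000367) for SCLCs to tc;Sf1ESCs and 35.5 (exact 95% counting interval 9.48 to 299, adjusted p = 0.000616) for todPGCLCs to tcESCs. They rest on 1 and 2 counts in the lower group. Without the library at 0 there, the ratios were 48.2 and 19.5, and without the other one the bounds against 3 counts were at least 17.3-fold and 10.6-fold. Col8a2, its partner, had 0 and 5 counts in tcESCs, 3 and 1 in tc;Sf1ESCs, 24 and 12 in SCLCs and 7 and 14 in todPGCLCs and did not pass the filter. Col10a1, the marker of hypertrophic cartilage, and Col28a1 had at most 8 counts in any library, as did the FACIT Col19a1.

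FACIT genes had their highest levels in different groups. Col9a2 (chromosome 4, 121039385 to 121055322 on GRCm38, + strand), 1 of the 3 chains of type IX collagen on cartilage fibrils, was the highest member of all in todPGCLCs. It had 2.6 and 2.53 CPM in tcESCs, 1.32 and 1.35 in tc;Sf1ESCs, 11.4 and 6.5 in SCLCs and 56.4 and 59.9 in todPGCLCs. The todPGCLC libraries stood well clear of every other library, log2 4.50 ± 0.245 (SE, adjusted p = 1.75e-06) above tcESCs, and SCLCs lay between (-2.71 ± 0.215 (SE, adjusted p = 7e-06) against todPGCLCs and 1.80 ± 0.287 (SE, adjusted p = 0.000954) against tcESCs). Col9a1 (chromosome 1, 24177610 to 24252684 on GRCm38, + strand) was detected mainly in todPGCLCs, with 0 and 2 counts in tcESCs, 0 and 0 in tc;Sf1ESCs, 12 and 4 in SCLCs and 69 and 105 in todPGCLCs (2.38 and 3.75 CPM). Its ratio of todPGCLCs to tcESCs was 85.8 (exact 95% counting interval 23.4 to 714, adjusted p = 0.000253), or 47 without tcESC replicate 1 and at least 25.9 against 3 counts without replicate 2. SCLCs were below todPGCLCs, the log2 fold change being -3.32 ± 0.55 (SE, adjusted p = 0.000926), with -4.37 without SCLC replicate 1 and -2.68 without replicate 2. Col9a3, the remaining type IX chain, had 2.21 and 2.11 CPM in tcESCs, 5.56 and 4.83 in tc;Sf1ESCs, 2.98 and 3.7 in SCLCs and 3.97 and 5.04 in todPGCLCs. It was higher in tc;Sf1ESCs than in tcESCs (log2 1.26 ± 0.207 (SE, adjusted p = 0.004)), a call lost without tcESC replicate 2, and in todPGCLCs by 1.06 ± 0.22 (SE, adjusted p = 0.00284), lost without tcESC replicate 2 or todPGCLC replicate 2 (lowest 0.89). Col9a3 overlaps Tcfl5 on the other strand, a gene with up to 798 counts, and the strand setting of the counting is not given in the sources used here, so its level is uncertain.

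The 250 bases before the upstream RefSeq start of Col9a1 are shown because that gene was near 0 outside todPGCLCs (GRCm38.p6, chr1:24177360-24177609, + strand). Its only match, in capitals, was AAGGTCA on the other strand, 28 bases before the start. A second listed promoter of Col9a1 held CCAAT.
Col9a1: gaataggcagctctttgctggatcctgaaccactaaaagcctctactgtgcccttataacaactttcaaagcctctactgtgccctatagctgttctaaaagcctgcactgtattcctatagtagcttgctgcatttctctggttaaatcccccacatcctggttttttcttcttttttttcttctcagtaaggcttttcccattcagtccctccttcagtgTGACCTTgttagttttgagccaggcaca

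FACITs of interstitial matrix were instead highest in SCLCs. Col12a1 (chromosome 9, 79598991 to 79718831 on GRCm38, - strand), which bridges type I fibrils, had 2 and 1 counts in tcESCs, 4 and 2 in tc;Sf1ESCs, 622 and 266 in SCLCs (24.4 and 9.56 CPM) and 50 and 31 in todPGCLCs (1.73 and 1.11 CPM). In SCLCs it stood log2 7.18 ± 0.687 (SE, adjusted p = 6.71e-05) above tc;Sf1ESCs and 3.57 ± 0.458 (SE, adjusted p = 0.000129) above todPGCLCs, or 6.36 and 2.75 without SCLC replicate 1. Without tc;Sf1ESC replicate 1, which leaves 2 counts, the ratio of SCLCs to tc;Sf1ESCs was 227 (exact 95% counting interval 62.8 to 1881). Col16a1, which joins fibrils to cells and other matrix, had 0.158 and 0.26 CPM in tcESCs, 0.466 and 0.146 in tc;Sf1ESCs, 12.2 and 10.2 in SCLCs and 1.21 and 1.89 in todPGCLCs. It rose by log2 5.20 ± 0.385 (SE, adjusted p = 1.89e-05) in SCLCs over tc;Sf1ESCs, a value of 6.18 or 4.57 without tc;Sf1ESC replicate 1 or replicate 2. Col14a1, a regulator of fibril growth, had 0.828 and 0.812 CPM in tcESCs, 0.466 and 0.476 in tc;Sf1ESCs, 4.9 and 1.62 in SCLCs and 0.242 and 0.644 in todPGCLCs. It was log2 2.78 ± 0.574 (SE, adjusted p = 0.00348) above tc;Sf1ESCs in SCLCs, with 1.79 without replicate 1 and 3.37 without replicate 2. Col20a1 had 5.24 and 5.33 CPM in tcESCs, 3.23 and 2.2 in tc;Sf1ESCs, 20.5 and 24.3 in SCLCs and 9.88 and 7.47 in todPGCLCs. It was higher in SCLCs than in tc;Sf1ESCs by log2 3.06 ± 0.204 (SE, adjusted p = 1.13e-05), and an overlapping transcript on the same strand with up to 340 counts makes its level uncertain. Col22a1, a collagen of tissue junctions such as muscle to tendon, had 0.868 and 1.07 CPM in tcESCs, 2.33 and 2.09 in tc;Sf1ESCs, 3.29 and 1.8 in SCLCs and 6.42 and 7.26 in todPGCLCs. It was highest in todPGCLCs (log2 2.80 ± 0.311 (SE, adjusted p = 8.16e-05) over tcESCs), and its call in tc;Sf1ESCs (1.17 ± 0.356 (SE, adjusted p = 0.0427)) was lost whichever of the 4 libraries was left out (1.04 to 1.34).

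Transmembrane collagens, which sit in the plasma membrane and shed their outer parts, were low in every group. Col13a1 had 2.01 and 2.21 CPM in tcESCs, 1.9 and 2.05 in tc;Sf1ESCs, 5.61 and 8.55 in SCLCs and 1.69 and 1.11 in todPGCLCs. It was higher in SCLCs, by log2 1.84 ± 0.255 (SE, adjusted p = 0.000446) over tc;Sf1ESCs and 2.33 ± 0.289 (SE, adjusted p = 0.000104) over todPGCLCs. Col23a1 had 0.394 and 0.325 CPM in tcESCs, 0.35 and 0.329 in tc;Sf1ESCs, 4.27 and 3.59 in SCLCs and 2.97 and 4.18 in todPGCLCs. It rose both in SCLCs (log2 3.52 ± 0.292 (SE, adjusted p = 3.23e-05) over tc;Sf1ESCs) and in todPGCLCs (3.31 ± 0.313 (SE, adjusted p = 3.44e-05) over tcESCs), with overlapping libraries between them. Col17a1, the hemidesmosome collagen of skin, had 3.31 and 3.31 CPM in tcESCs, 2.88 and 2.63 in tc;Sf1ESCs, 2.43 and 1.58 in SCLCs and 4.11 and 3.58 in todPGCLCs, and was called in no comparison. Col25a1, first known from brain, had 1 and 7 counts in tcESCs, 3 and 0 in tc;Sf1ESCs, 25 and 17 in SCLCs and 14 and 10 in todPGCLCs, below the filter. Outside the classes, Col26a1, a secreted collagen first described in testis and ovary, had 0.868 and 1.33 CPM in tcESCs, 0.389 and 0.366 in tc;Sf1ESCs, 4.63 and 2.34 in SCLCs and 2.49 and 3.83 in todPGCLCs. It was log2 3.19 ± 0.464 (SE, adjusted p = 0.000578) above tc;Sf1ESCs in SCLCs and 1.5 ± 0.4 (SE, adjusted p = 0.0102) above tcESCs in todPGCLCs, the latter lost without tcESC replicate 1 or todPGCLC replicate 2 (lowest 1.17). In tc;Sf1ESCs it was log2 -1.55 ± 0.508 (SE, adjusted p = 0.0549) relative to tcESCs, short of the threshold.

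Ratios of CPM per kilobase between chains that share a molecule, taken within each library, differed between groups. A type I molecule normally takes 2 Col1a1 chains to 1 Col1a2 chain. The ratio Col1a1/Col1a2 was 2.98 and 4.42 in the tc;Sf1ESC libraries, 5.78 and 6.85 in SCLCs and 0.952 and 1.12 in todPGCLCs. When coding length replaced merged exons its means were 1.84, 3.15 and 0.517, since the annotated exons of Col1a2 far exceed its coding part, but SCLCs stayed highest and todPGCLCs lowest. Col11a1/Col11a2 was 5.71 and 4.36 in tcESCs, 16.2 and 15.5 in tc;Sf1ESCs, 55 and 25.9 in SCLCs and 0.819 and 1.38 in todPGCLCs, so the partners were closest to balance in that last group. Col9a3/Col9a2 went from 3.38 and 2.87 in tc;Sf1ESCs through 0.682 and 0.669 in tcESCs and 0.211 and 0.457 in SCLCs to 0.0566 and 0.0676 in todPGCLCs, where Col9a1/Col9a2 was 0.0258 and 0.0383. In todPGCLCs Col9a2 therefore stood far above both chains with which it assembles. Col5a1/Col5a2 was 18.3 and 26.8 in tcESCs, 10.1 and 8.37 in tc;Sf1ESCs, 2.64 and 4.42 in SCLCs and 10.3 and 13.9 in todPGCLCs. Col6a1/Col6a2 was 4.9 and 5.4 in SCLCs and 4.37 and 2.51 in todPGCLCs, and Col6a3/Col6a1 was 0.0607 and 0.0952 and 0.213 and 0.349. Col8a1/Col8a2 was 1.46 and 1.86 in SCLCs.

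**Figure D4:**
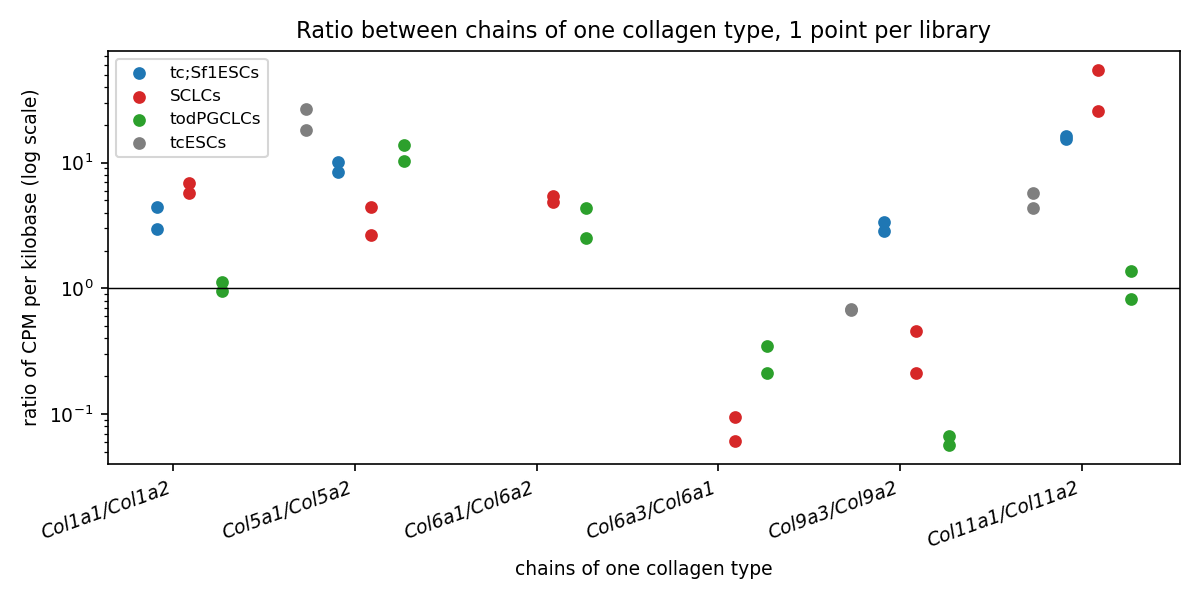
Ratio between chains of one collagen type in CPM per kilobase (log scale), 1 point per library where both chains had more than 10 counts. Col1a1/Col1a2 lies near 1 in todPGCLCs and at 5.78 and 6.85 in SCLCs, and Col9a3/Col9a2 falls to 0.0566 and 0.0676 in todPGCLCs.

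Most members were higher in SCLC replicate 1 than in replicate 2. The median of log2 replicate 1 minus log2 replicate 2 over the 29 members tested was 0.69 in SCLCs, against 0.00 over all genes, and 18 of 29 (62.1%) were over 0.5 higher in replicate 1, against 13% of 16707 genes. The ratio of replicate 1 to replicate 2 was 2.32 for Col1a1, 2.75 for Col1a2, 2.39 for Col5a2, 2.27 for Col6a1, 2.5 for Col6a2, 2.55 for Col12a1 and 3.03 for Col14a1. By contrast it was 0.898 for Col2a1, 0.845 for Col20a1 and 0.656 for Col13a1. Genes of the collagen pathway lists went both ways. The ratio was 2.17 for Dcn, 2.58 for Lox, 2.4 for Lum and 2.27 for Mmp2. It was 0.989 for Serpinh1, 0.907 for Sparc, 1.16 for P4ha1, 0.963 for P4hb, 1.17 for Loxl2 and 0.819 for Bmp1. For the basement membrane chain Col4a1 it was 1.02. Of the 8 fibroblast and peritubular genes, Pdgfra stood at 0.839, Pdgfrb at 1.28, Acta2 at 1.39, Twist1 at 1.5, Prrx1 at 1.14 and Nr2f2 at 1.08, and Tcf21 and Myh11 had too few counts for a ratio. Of the 7 endoderm genes, Cubn (0.498), Ttr (0.397), Afp (0.471), Apoa1 (0.535) and Amn (0.605) were lower in replicate 1, whereas Foxa2 (1.19) and Sox17 (1.05) were not. Of the 6 pluripotency genes, Nanog (3.24), Sox2 (2.88), Esrrb (1.95), Pou5f1 (1.52) and Zfp42 (1.16) were higher in replicate 1 and Klf4 (0.991) was about equal. The part of these differences in the collagen values was not tested.

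**Figure D5:**
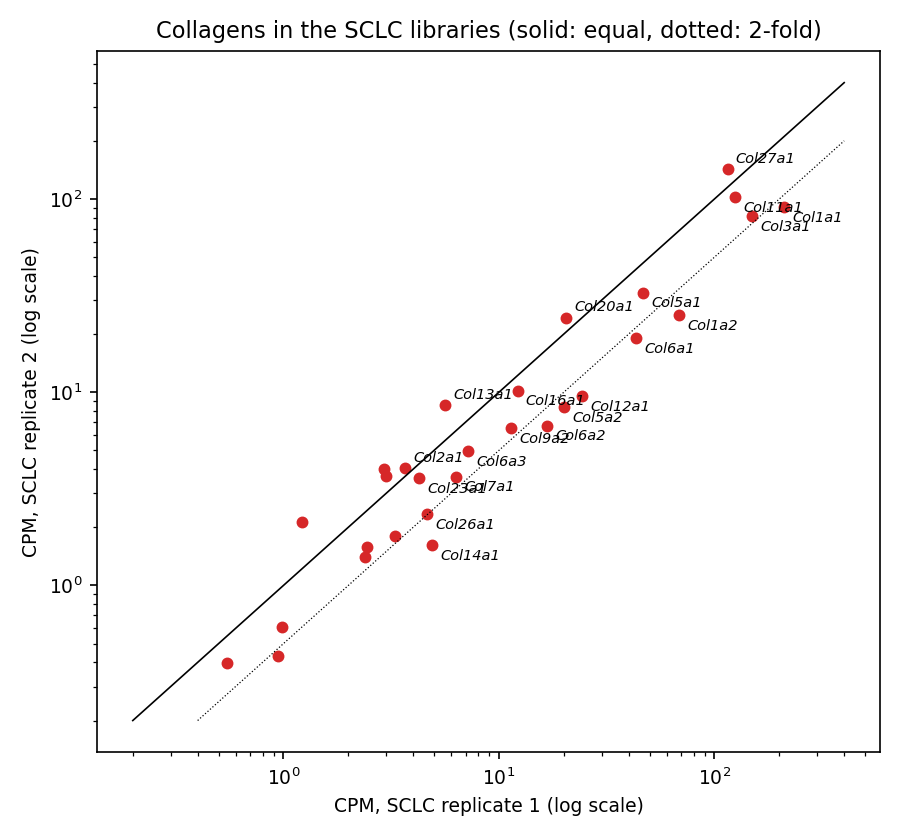
CPM of members in SCLC replicate 1 (horizontal) and replicate 2 (vertical), both on log scales, for genes above 0.4 CPM in replicate 1. Col9a1 (0.471 and 0.144 CPM) is left out for its low level in replicate 2. The solid line marks equal levels and the dotted line a 2-fold higher level in replicate 1; Col1a1, Col1a2, Col6a1 and Col12a1 lie beyond the dotted line, while Col27a1 and Col20a1 lie on the other side of equality.

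The machinery that makes and handles collagen was examined as 62 genes in 7 lists, of which 55 were tested. In SCLCs 36 (65.5%) were higher and 5 (9.09%) lower than in tc;Sf1ESCs, against 24.1% and 18.1% of all genes tested. Against tcESCs 30 (54.5%) were higher and 5 (9.09%) lower in SCLCs, beside 24.3% and 18.3% of all genes. In todPGCLCs 19 (34.5%) were higher and 9 (16.4%) lower than in tcESCs, beside 18.1% and 11.2%. In tc;Sf1ESCs 6 (10.9%) were higher and 9 (16.4%) lower than in tcESCs, beside 6.04% and 5.63%. SCLCs exceeded todPGCLCs in 33 (60%) and were below them in 8 (14.5%), beside 19.5% and 18.5%. Genes of the lists that are high in 1 group alone passed the filter through that group, as members did. Among list genes with a mean count above 10 in the second group, 24 of 41 (58.5%) were higher and 5 (12.2%) lower in SCLCs than in tc;Sf1ESCs, against 19% and 19.6% of all such genes, and 23 of 48 (47.9%) were higher and 5 (10.4%) lower in SCLCs than in tcESCs, against 19.8% and 19.6%. By the same count 14 of 48 (29.2%) were higher and 9 (18.8%) lower in todPGCLCs than in tcESCs, against 13.9% and 12.2%, and 5 (10.4%) higher and 8 (16.7%) lower in tc;Sf1ESCs, against 5.23% and 5.98%. SCLCs exceeded todPGCLCs in 29 of 51 (56.9%), against 17.3%, and were below them in 8 (15.7%), against 19.3%. Single lists hold few genes, and their counts are to be read beside these shares. In SCLCs Col4a1 and Col4a2 stood at 2650 and 1482 CPM per kilobase, against 22.9 for Col1a1, the highest member. Which collagens the list genes handle there was not tested.

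Of the 15 prolyl and lysyl modification genes, 11 were higher in SCLCs than in tc;Sf1ESCs and 0 were lower, and 9 of the 13 with a mean count above 10 in tc;Sf1ESCs were higher. P4ha1, a catalytic subunit of the prolyl 4-hydroxylase that stabilises the helix, had 14.2 and 18 CPM in tcESCs, 22.5 and 25.2 in tc;Sf1ESCs, 770 and 664 in SCLCs and 186 and 163 in todPGCLCs. Its log2 fold change was 4.92 ± 0.141 (SE, adjusted p = 3.48e-07) in SCLCs over tc;Sf1ESCs and 3.43 ± 0.136 (SE, adjusted p = 4.14e-07) in todPGCLCs over tcESCs. P4ha2, the second such subunit, was log2 6.14 ± 0.0789 (SE, adjusted p = 3.6e-08) and 3.36 ± 0.18 (SE, adjusted p = 1.58e-06) higher in these comparisons. P3h2, a prolyl 3-hydroxylase, rose from 3 and 2 to 2058 and 2766 counts, a ratio of 960 (exact 95% counting interval 411 to 2957, adjusted p = 1.64e-07). In todPGCLCs 3 of the 15 (20%) were higher and 2 (13.3%) lower than in tcESCs, close to the 18.1% and 11.2% of all genes tested. Of the 9 chaperone and export genes, 5 were higher in SCLCs than in tc;Sf1ESCs, and all 9 had a mean count above 10 in tc;Sf1ESCs. Serpinh1, the collagen chaperone HSP47, had 45.1 and 48.5 CPM in tcESCs, 163 and 159 in tc;Sf1ESCs, 2546 and 2573 in SCLCs and 146 and 202 in todPGCLCs, with log2 3.99 ± 0.072 (SE, adjusted p = 7.94e-08) over tc;Sf1ESCs and, already in that clone, 1.78 ± 0.0677 (SE, adjusted p = 2.71e-05) over tcESCs. Creb3l1, a transcription factor that acts on secretory genes, rose by log2 6.41 ± 0.26 (SE, adjusted p = 1.27e-06). Fkbp10, a chaperone of type I procollagen, was log2 -2.77 ± 0.485 (SE, adjusted p = 0.00523) in tc;Sf1ESCs relative to tcESCs and 3.74 ± 0.475 (SE, adjusted p = 0.000289) in SCLCs relative to that clone. The first call was lost without tcESC replicate 2, and the second change was 3.07 without SCLC replicate 1.

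Of the 7 procollagen cleavage genes tested, 3 were higher and 3 lower in SCLCs than in tc;Sf1ESCs, or 2 and 3 of the 5 with a mean count above 10 in tc;Sf1ESCs. Bmp1, the proteinase that removes the C-propeptide, rose by log2 3.96 ± 0.179 (SE, adjusted p = 1.94e-06), while Tll1, a proteinase of the same family, had a log2 fold change of -3.88 ± 0.293 (SE, adjusted p = 2.05e-05). The C-proteinase enhancers Pcolce and Pcolce2 fell, with log2 fold changes of -3.51 ± 0.327 (SE, adjusted p = 5.85e-05) and -6.89 ± 0.3 (SE, adjusted p = 1.65e-06). Without SCLC replicate 1 these were -4.32 and -8.25, and without replicate 2 -2.97 and -6.16. Pcolce had 115 and 120 CPM in tcESCs, 74.2 and 71.6 in tc;Sf1ESCs, 9.25 and 3.59 in SCLCs and 9.91 and 4.9 in todPGCLCs, so it was low in both sorted cell groups. In todPGCLCs, Adamts14, an N-propeptide proteinase, was log2 2.93 ± 0.407 (SE, adjusted p = 0.000295) above tcESCs, at 20 and 21.4 CPM. Of the 5 cross-linking genes, Lox, Loxl1 and Loxl2 were higher in SCLCs than in tc;Sf1ESCs, but each had a mean count of at most 10 in tc;Sf1ESCs and passed the filter through SCLCs, so nothing is read from their number. Loxl2, a lysyl oxidase that also acts on type IV collagen, had 0.394 and 0.26 CPM in tcESCs, 0.35 and 0.293 in tc;Sf1ESCs, 332 and 284 in SCLCs and 16.1 and 10.7 in todPGCLCs, a log2 fold change of 9.89 ± 0.171 (SE, adjusted p = 6.92e-08), and in todPGCLCs 5.37 ± 0.314 (SE, adjusted p = 2.53e-06) over tcESCs. Lox itself was at least 40.4-fold higher in SCLCs than in tc;Sf1ESCs, at 168 and 71 counts against 0 in both, and at least 22.5-fold higher without SCLC replicate 1.

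Of the 6 fibril partners tested, 4 were higher and 2 lower in SCLCs than in tc;Sf1ESCs, or 2 and 2 of the 4 with a mean count above 10 in tc;Sf1ESCs. Sparc, a collagen-binding protein that also binds type IV collagen, reached 7601 and 8383 CPM in SCLCs (log2 4.37 ± 0.082 (SE, adjusted p = 9.31e-08)) but was -1.23 ± 0.0923 (SE, adjusted p = 9.68e-06) in todPGCLCs relative to tcESCs. Dcn, the fibril proteoglycan decorin, was at least 47.3-fold higher in SCLCs than in tc;Sf1ESCs, or 29.8-fold without SCLC replicate 1. Fn1, the fibronectin on which fibrils assemble, and Comp, a partner of types II and IX, were lower there (log2 -2.38 ± 0.112 (SE, adjusted p = 2.28e-06) and -3.08 ± 0.211 (SE, adjusted p = 1.29e-05)), and Comp had been higher in tc;Sf1ESCs than in tcESCs (2.21 ± 0.195 (SE, adjusted p = 0.000406)), as Col2a1 and Col9a3 were, whereas Col9a2 was at -0.94 ± 0.328 (SE, adjusted p = 0.0666) and not called. Among the 7 collagen receptors tested, 1 was higher and 4 were lower in tc;Sf1ESCs than in tcESCs, all 7 having a mean count above 10 in tcESCs, and among the lower were the collagen-binding kinases Ddr1 (log2 -1.20 ± 0.205 (SE, adjusted p = 0.00474)) and Ddr2 (-1.49 ± 0.295 (SE, adjusted p = 0.00872)). The call of Ddr1 was lost without tcESC replicate 2, and that of Ddr2 without either tcESC library or tc;Sf1ESC replicate 2. Of the same 7 receptors 5 were higher and 0 lower in SCLCs than in tc;Sf1ESCs, or 3 of the 5 with a mean count above 10 in tc;Sf1ESCs. Mrc2, an uptake receptor for collagen fragments, had 1.34 and 1.3 CPM in tcESCs, 0.466 and 0.11 in tc;Sf1ESCs, 11.8 and 7.04 in SCLCs and 18.8 and 33.2 in todPGCLCs. It was higher in SCLCs than in tc;Sf1ESCs (log2 5.03 ± 0.496 (SE, adjusted p = 7.76e-05), or 4.31 without tc;Sf1ESC replicate 2 and, without replicate 1, a ratio of 84.7 with an exact 95% counting interval of 28.8 to 412) and highest in todPGCLCs (4.30 ± 0.418 (SE, adjusted p = 3.94e-05) over tcESCs). Of the 6 breakdown genes tested, 5 were higher in SCLCs than in tc;Sf1ESCs, or 3 of the 4 with a mean count above 10 there, the largest change being that of the inhibitor Timp3 (log2 10.11 ± 0.143 (SE, adjusted p = 5.26e-08)). Mmp9, a gelatinase, was higher in todPGCLCs than in tcESCs (log2 6.39 ± 0.544 (SE, adjusted p = 1.86e-05)), where it went from 0 and 4 to 161 and 199 counts, the change being 5.51 without tcESC replicate 1 and at least 53.6-fold against 3 counts without tcESC replicate 2.

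In the tc;Sf1ESC clone, the median log2 fold change over the genes of a chromosome was more than 0.1 from 0 on 4 chromosomes, at 0.47 on chromosome 8, -0.46 on chromosome 16, -0.31 on chromosome 6 and 0.20 on chromosome 3 over the genes tested. The 5 members called in tc;Sf1ESCs against tcESCs lie on chromosomes 2, 9 and 15, whose medians were -0.02, 0.00 and -0.02. Of the 3 tested members on chromosomes 3, 6, 8 and 16, Col11a1 on chromosome 3 was log2 0.90 ± 0.122 (SE, adjusted p = 0.00193) above tcESCs, Col1a2 on chromosome 6 0.92 ± 0.996 (SE, adjusted p = 0.525), neither being called. Col8a1 on chromosome 16 had at most 2 counts in each of the 4 libraries, and Col24a1, Col25a1 and Col28a1 there were not tested. Comp, the partner of types II and IX named above, lies on chromosome 8.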

How the data were processed

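Total RNA was extracted with a PicoPure kit and sequenced as strand-specific poly-A libraries. Per the labels and the methods, the authors trimmed reads with Trim Galore, aligned them to GRCm38 with STAR 2.4.0, processed alignments with Picard and counted reads per gene with HTSeq. The values used here are the raw counts per Ensembl gene that the authors deposited, 1 table per library. The annotation release, overlap mode and strand setting of the counting are not given in the sources used here. Summary lines that name no gene were left out (per library 6.45 to 8.32% of reads in no feature, 2.96 to 3.14% ambiguous, 2.38 to 5% not aligned and 20.5 to 27.5% not aligned uniquely). Of the 46078 identifiers, 45143 were named and placed with GENCODE M21.

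Levels are CPM on TMM-scaled library sizes. Tests used edgeR 4.0.16 (glmQLFit and glmQLFTest, R 4.3.3) on genes with a mean count above 10, with tcESC, tc;Sf1ESC and SCLC libraries in 1 fit (16481 genes) and all 8 libraries in another for todPGCLCs (16707 genes), Benjamini-Hochberg adjustment over all genes tested, and a 2-fold limit. The scripts were tested on simulated counts. The study describes its experiments in general as biologically replicated, but the labels do not say whether the 2 libraries of a group came from separate cultures, so p-values measure the spread between these libraries, which may be technical, and counting intervals and floors (3 counts) cover counting error only. No pair of libraries in a group agreed within sampling noise (chi-square per degree of freedom 1.44 to 32.1). Libraries with the same number did not deviate together (correlations -0.0259 to 0.0624), so numbers were not taken as pairs.

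The members, gene lists and tests were chosen with earlier results of these data known. Members with more than 10 counts in a library are named with their values, and full statistics go to the called members with at least 1 CPM in the higher group, the 6 largest per direction, and their chain partners. Statistics of the other members, Col6a4 in tc;Sf1ESCs included, were added after their values were seen. Of each pathway list, up to 3 called genes with the largest changes are named, with Serpinh1, Fkbp10, Pcolce, Comp, Ddr1, Ddr2, Mrc2 and Mmp9 added likewise. Alternatives were DESeq2 1.42.0, other scalings and filters, other sets of libraries, stricter limits, a replicate block, coding lengths and leaving out each library.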

Additional observations from a re-analysis of the deposited data

How the results depend on the processing

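With 2 libraries per group, precision rests on few values, and members at a few counts cannot be ranked. No called value of a named member or gene changed direction under any alternative. Of single-gene values, 841 kept their side of the threshold and 37 lost their call under other settings, and 590 and 40 did so when 1 library was left out. Testing against a 2-fold change lowered the genes called between tc;Sf1ESCs and tcESCs from 1923 to 594 and the members from 5 to 2 (Col2a1 and Col5a3), and the genes called between todPGCLCs and tcESCs from 4906 to 3078. Leaving out 1 library at a time gave 1119 to 2304 genes and 3 to 7 members for the first comparison (lowest without tcESC replicate 2, and 3 members without either tcESC library or tc;Sf1ESC replicate 2), 6568 to 7130 and 19 to 24 for SCLCs against tc;Sf1ESCs, 6508 to 7184 and 18 to 23 for SCLCs against tcESCs, 4421 to 5016 and 19 to 22 for todPGCLCs against tcESCs, and 5764 to 6646 and 19 to 21 for SCLCs against todPGCLCs. A replicate block, although the numbers do not pair the libraries, gave 6, 23, 22, 22 and 19 members called in the same order. Scaling by library totals alone moved the median of all genes to -0.15 for SCLCs against todPGCLCs, from -0.01, and the todPGCLC sums per kilobase to 24.6 (FACIT), 1.68 (transmembrane) and 45.4 (all members).

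With coding length in place of merged exons, the sums in tcESCs, tc;Sf1ESCs, SCLCs and todPGCLCs became 9.09, 15.9, 127 and 25.8 (fibrillar), 0.768, 0.378, 16.1 and 6.28 (network and filament), 4.01, 4.48, 16.8 and 35.5 (FACIT), 1.97, 1.73, 6.33 and 3.83 (transmembrane) and 16.7, 22.8, 169 and 73.8 (all members). Chain ratios became 1.84, 3.15 and 0.517 for Col1a1/Col1a2 (tc;Sf1ESCs, SCLCs, todPGCLCs), 16, 6.56 and 8.58 for Col5a1/Col5a2 (tcESCs, tc;Sf1ESCs, todPGCLCs), 2.99 and 2 for Col6a1/Col6a2 (SCLCs, todPGCLCs), 0.851, 3.93 and 0.0782 for Col9a3/Col9a2 (tcESCs, tc;Sf1ESCs, todPGCLCs), 8.61, 27.1, 69.2 and 1.88 for Col11a1/Col11a2 in the 4 groups and 2.72 for Col8a1/Col8a2 in SCLCs. These follow from the lengths used.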
